A study of Mus musculus with 27 samples.

Results

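Nuclear receptors are transcription factors that are switched by small lipophilic molecules, and 36 genes were read out here: 31 receptors, 3 coactivators (Ncoa1, Ncoa2, Ncoa3) and 2 corepressors (Ncor1, Nrip1). They were taken by symbol, as the rows whose Ensembl ID carries one of the 36 symbols in the GENCODE M21 annotation, and all 36 were found among the 43346 genes of the table. Their levels came from RNA sequencing of hepatocytes, the main cell type of the liver, from female mice aged 12 weeks of 9 inbred strains. CAST/EiJ, PWK/PhJ and WSB/EiJ are derived from wild mice, and NZO/HlLtJ, A/J, NOD/ShiLtJ, C57BL/6J, DBA/2J and 129S1/SvImJ are laboratory strains. Each had 3 libraries, 27 in all, which the labels call biological replicates without naming the animals. Strain was the only factor, so differences are between inbred genomes and whatever else differs between the animals of a strain.

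Most of these receptors bind DNA as heterodimers with a retinoid X receptor (RXR), as homodimers or as monomers, at copies of a short hexamer. When a ligand binds, corepressor complexes around Ncor1 are exchanged for coactivators of the Ncoa family. In the liver the family senses sterols, bile acids, foreign compounds, fatty acids and hormones, and through its target genes sets bile acid synthesis, drug metabolism, lipid storage and glucose production. A receptor's RNA level is not its activity, which also depends on ligand, partner and protein.

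Library totals ran from 17015956 to 35078511 estimated counts. The hepatocyte label was met by the defining markers: Alb had a median of 113996.1 CPM (counts scaled to the library size after TMM normalization), and Hnf4a ran from 208.7 to 482.3. Of 7 bile duct cell markers, Krt19, Krt7, Epcam, Tspan8 and Cldn7 stayed at or below 0.574 CPM in every library, while Sox9 reached 3.62 and Spp1 6.36, both differed among strains, and the sum was highest in NOD/ShiLtJ (7.86 to 9.74). Each of the 9 lymphocyte markers stayed at or below 0.679 CPM. Markers of 3 other liver cell types were present and differed between strains. The 12 liver endothelial cell markers summed to between 76.3 CPM in a NZO/HlLtJ library and 983.6 in PWK/PhJ replicate 1, which stood far above the other PWK/PhJ libraries at 306.0 and 345.8. The 12 Kupffer cell (liver macrophage) markers summed to between 53.8 CPM in 129S1/SvImJ and 723.1 in the same PWK/PhJ library, and the 12 stellate cell markers to between 33.3 in CAST/EiJ and 215.0, again there. Against the other strains, 12 endothelial, 8 Kupffer and 7 stellate markers were higher in PWK/PhJ, and 9 endothelial and 7 stellate markers were lower in NZO/HlLtJ. More Kupffer markers were higher in C57BL/6J (11) and A/J (9, with 3 stellate markers), and Kupffer markers were lower in CAST/EiJ (6, with 4 stellate markers) and 129S1/SvImJ (5).

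The drug sensor Nr1i3 and the heterodimer partner Rxra were the most abundant members per length. Averaged over the 27 libraries and divided by the longest transcript, they reached 56.7 and 51.4 CPM per kilobase, ahead of the oxysterol receptor Nr1h3 (34.2), the orphan receptor Nr2f6 (30.6) and the bile acid feedback receptor Nr0b2 (28.3). With all exons of the gene as the length, the order of the first pair turned, at 38.3 for Nr1i3 and 46.1 for Rxra, and Nr0b2 (28.3) came before Nr1h3 (27) and Nr2f6 (22.7), so the order of the first 5 depends on the length used. At the low end, Rarg had 0.514 CPM per kilobase, Nr4a2 0.0843 and Nr2f1 0.0481. The vitamin D receptor Vdr was close to silent, with 0 counts in 19 libraries and at most 4 in any library. A count of 0 allows a level of up to 0.0759 to 0.155 CPM, depending on the library and for counting error only. Its counts were too low for a test.

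**Figure D1:**
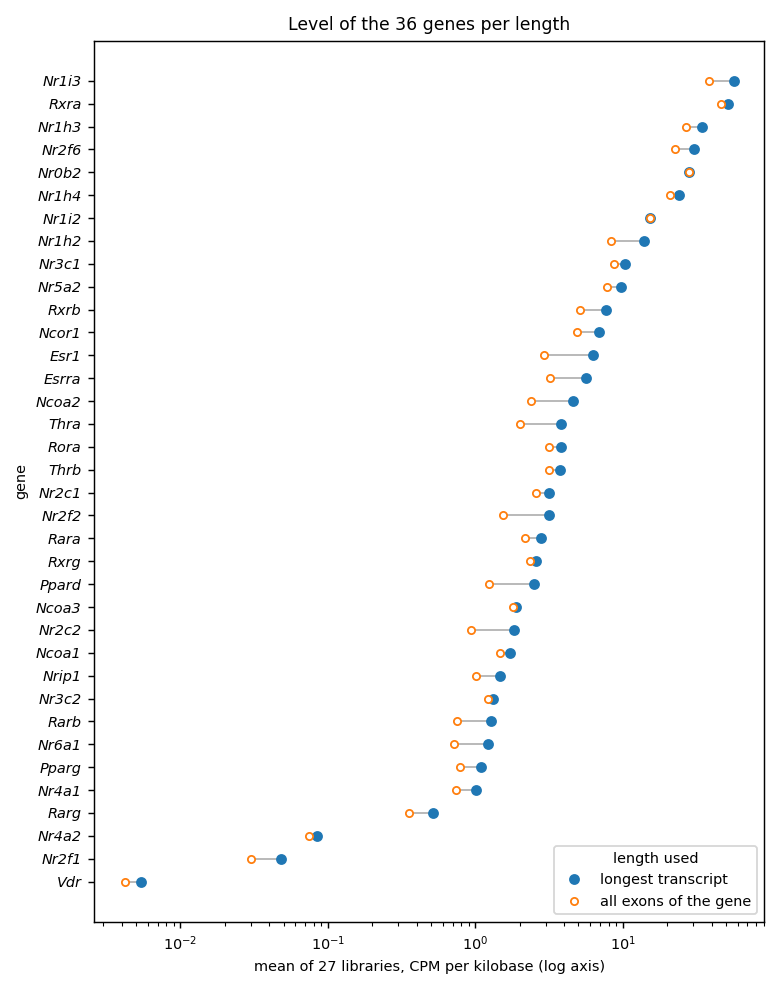
Mean level of the 36 genes over 27 libraries in CPM per kilobase on a log axis, with the longest transcript (filled) or all exons (open) as length, 1 gene per row. Nr1i3 and Rxra lead at 56.7 and 51.4 CPM per kilobase of the longest transcript, and Vdr is last at 0.0054.

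Of the 35 members tested, 23 differed among the 9 strains (edgeR quasi-likelihood test over all strain coefficients, Benjamini-Hochberg adjusted p under 0.05 over 14482 genes). Over all genes tested 74.2% did so, which is more than the members' 23 of 35. The share of variance in log2(CPM + 0.5) that lay between strains had a median of 60.3% in the members and 66.9% in all genes. The strain means of a member spanned a median of 0.88 on the log2(CPM + 0.5) scale, against 0.95 over all genes. Only 6 members had an adjusted p under 0.001, a threshold that 37.5% of all genes passed. Beside genes of similar level, the 21 members with a mean of 10 to 100 CPM stood lower, with 13 called where 77.5% of such genes were, and a median range of 0.59 against 0.77. The 10 members at 1 to 10 CPM had 7 calls and a median range of 1.02, near the 72.7% and 1.03 of such genes. No test was made of these differences, which describe a list chosen by name.

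Without PWK/PhJ replicate 1, the library richest in markers of other liver cells, 22 members were called. With the 3 marker lists as covariates in the fit, 16 were called, and 8553 of all genes in place of 10746. Whether fewer cells of a type or less RNA per cell lies behind a marker's level cannot be told apart in such bulk samples.

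**Figure D2:**
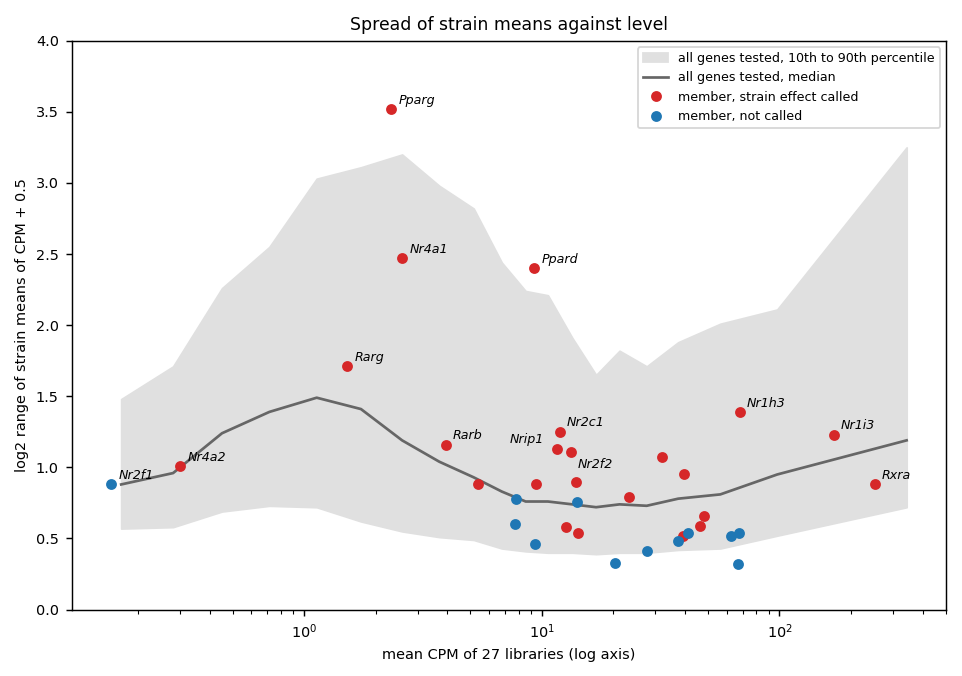
Log2 range of the 9 strain means of CPM + 0.5 (vertical axis) against mean CPM on a log axis, for 35 members (red: strain effect called, blue: not called) over the median (line) and the 10th to 90th percentile (grey) of all genes tested in classes of level. Pparg and Ppard lie above the grey band, and most members between 10 and 100 CPM lie near or below the line.

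When each strain was set against the mean of the 8 others, the members split unevenly. CAST/EiJ had the most calls, 10 members higher and 3 lower, where 20.1% of all genes were higher and 17.8% lower. Over all genes, too, CAST/EiJ had the largest share of the strains in each direction. With the marker covariates the CAST/EiJ counts of members were 5 higher and 0 lower, fewer than the 5 and 2 then called in PWK/PhJ. Shares of all genes called in each strain were not counted with those covariates. In the fit without covariates, higher in CAST/EiJ were Nr1h3, Nr1i2, Rxra, Rara, Rarb, Esr1, Esrra, Nr3c2, Nr2f2 and Nr4a2, and lower were Ppard, Nr2c1 and Ncoa3. A/J had 6 members lower (Nr1h2, Nr1h3, Nr1h4, Rara, Rxra and Rxrg) and 0 higher, against 11.6% and 15.9% of all genes. Such calls were 6 higher and 1 lower in 129S1/SvImJ (10.5% and 7.86% of all genes), 5 and 2 in C57BL/6J (11.6% and 6.5%), and 6 and 2 in NZO/HlLtJ (14.8% and 12.9%). They were 5 and 3 in PWK/PhJ (19.4% and 14.8%), 1 and 1 in NOD/ShiLtJ (9.2% and 5.72%), and 1 and 1 in WSB/EiJ (15.5% and 9.25%). DBA/2J had 0 in either direction by edgeR, against 9.5% and 3.78% of all genes, with 1 member higher and 1 lower at an unadjusted p under 0.05 and 1 called lower by DESeq2. In A/J 1 member was higher at an unadjusted p under 0.05. The 9 comparisons share libraries and are not independent of each other.

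CAST/EiJ had the highest mean of the 9 strains in 11 of 35 members (31.4%, against 18.0% of all genes tested). A/J had the lowest in 12 (34.3%, against 13.5%). The median log2 difference of A/J from the other strains was -0.21 over the members and 0.02 over all genes; for CAST/EiJ the medians were 0.10 and -0.01. The summed level of the 10 hepatocyte markers moved the other way, from 253304.7 to 350602.0 CPM in A/J and from 113129.6 to 125567.5 in CAST/EiJ, and its part in the members' order was not tested. Most of that sum is Alb, with a median of 113996.1 CPM. Of the 10 markers, 7 were higher and 2 lower in A/J, and 1 was higher and 5 lower in CAST/EiJ. The count of members lower in A/J rested on few libraries: it was 1 without A/J replicate 3, and 3 without CAST/EiJ replicate 1 or 4. It was 0 with the marker covariates and 2 with the replicate block, and Kupffer and stellate markers were higher in A/J. Without CAST/EiJ replicate 1, 6 members were higher in CAST/EiJ.

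**Figure D3:**
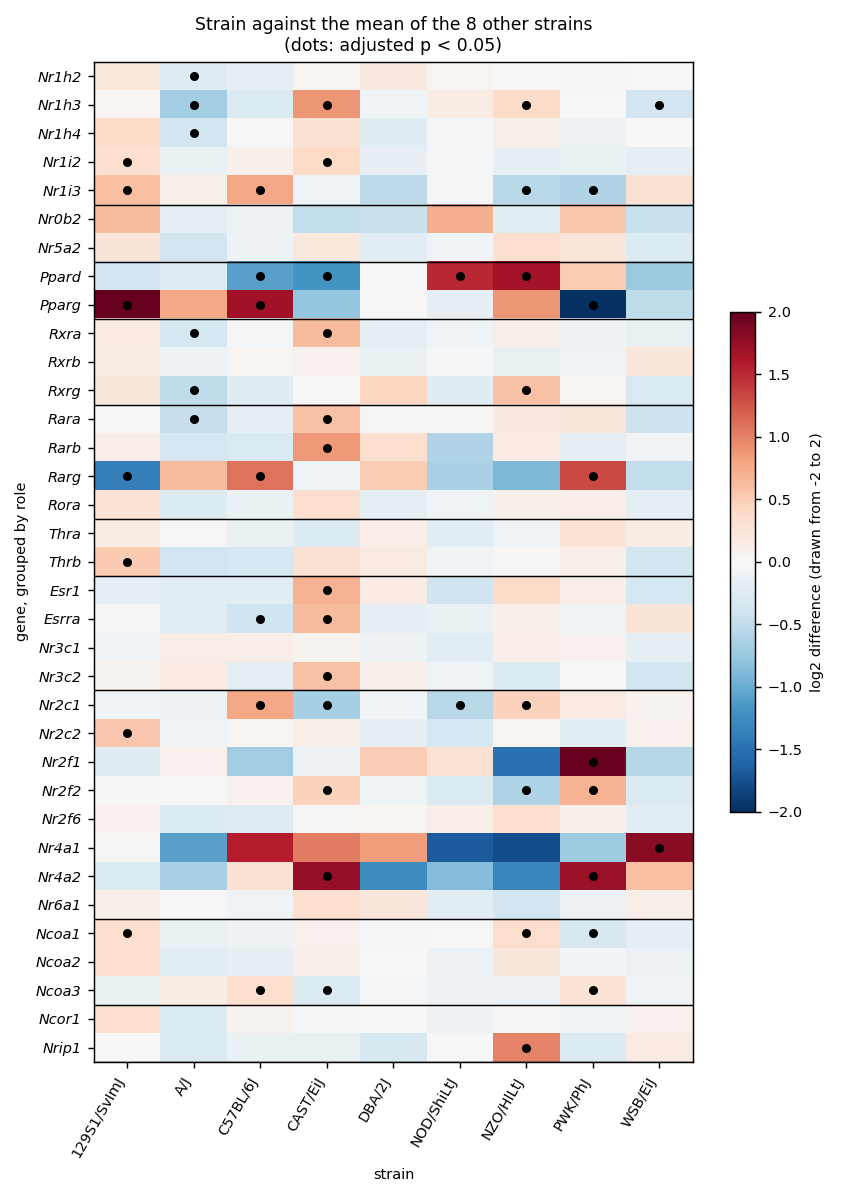
Log2 difference of each strain (column) from the mean of the 8 other strains for the 35 tested members (rows, ordered by role), with colour from -2 to 2 and black dots where the adjusted p is under 0.05. CAST/EiJ carries 13 dots, A/J 6 and DBA/2J 0. Over all genes tested CAST/EiJ also had the largest shares, 20.1% higher and 17.8% lower.

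Among the sensors, the oxysterol receptor Nr1h3 (LXRalpha, an activator of sterol export and fat synthesis genes) had the strongest strain effect of all members without covariates (F 14.1). With the marker covariates its F was 5.25, behind Ppard (13.1), Pparg (11.4), Nr1i3 (9.27), Nr2f2 (6.15) and Nr2c1 (5.81). Nr1h3 lies on chromosome 2 at 91184061 to 91202834 (GRCm38, minus strand). CAST/EiJ libraries had 126.0, 104.7 and 109.1 CPM, above every library of the other strains. A/J libraries had 41.4, 47.2 and 39.9 CPM. NZO/HlLtJ had 82.0, 88.6 and 76.1, NOD/ShiLtJ 71.8, 72.2 and 71.2, and 129S1/SvImJ 67.5, 60.7 and 73.4 CPM. These 3 strains lay between the extremes. PWK/PhJ had 57.7, 67.4 and 72.0 CPM, DBA/2J 50.3, 61.6 and 75.4, C57BL/6J 68.6, 50.7 and 44.8, and WSB/EiJ 57.1, 44.9 and 52.6. The means of CAST/EiJ, 113.3 ± 11.2 (SD, n = 3), and A/J, 42.8 ± 3.84, were 2.65-fold apart (strain effect, adjusted p 1.96e-06). Against the other strains Nr1h3 was higher in CAST/EiJ (log2 difference 0.89, SE 0.11, adjusted p 3.96e-07) and lower in A/J (-0.69, SE 0.13, adjusted p 2.31e-04), whichever library was left out. Its smaller excess in NZO/HlLtJ (0.37, adjusted p 0.0181) was lost without NZO/HlLtJ replicate 1 (0.0771) or 2 (0.136), and its deficit in WSB/EiJ (-0.39, adjusted p 0.0201) without WSB/EiJ replicate 3 (0.171) or 4 (0.064). With the marker covariates the calls in A/J (-0.67, adjusted p 0.0702) and NZO/HlLtJ (0.18, 0.47) were lost, and those in CAST/EiJ (0.81, 0.00163) and WSB/EiJ (-0.37, 0.0371) were kept. The close relative Nr1h2 (LXRbeta) spanned only 1.33-fold between strain means, from 23.6 CPM in A/J to 31.5 in 129S1/SvImJ, and did not pass the strain test (adjusted p 0.0574); DESeq2 called it (0.0156). Its deficit in A/J (-0.26, adjusted p 0.0436) was lost in 12 of 27 refits, most clearly without A/J replicate 3 (0.292), and with the marker covariates (-0.22, 0.559).

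All 11 LXR target genes listed (such as sterol transporters and fat synthesis enzymes) differed among strains, each at least 2-fold, with a median log2 range of 1.76. Over all genes tested 74.2% differed, and 92.4% of those with a mean of at least 100 CPM. The lipase Lpl ran from 2.27 CPM in CAST/EiJ to 62.1 in A/J (27.4-fold, adjusted p 6.65e-09), the phospholipid transfer protein Pltp from 6.03 in CAST/EiJ to 65.9 in C57BL/6J (adjusted p 8.91e-07) and the sterol exporter Abcg5 from 52.5 in NZO/HlLtJ to 153.8 in A/J (adjusted p 1.88e-06). In CAST/EiJ, 7 of the 11 were lower (17.8% of all genes), and in A/J 6 were higher (15.9%), with no call the other way in either strain. Not all lay on that side: in A/J, where Nr1h3 was lower, Pltp was at -0.26 and Srebf1 at -0.39 (log2 difference, neither called). Kupffer and stellate markers moved in the same directions as these targets, 9 and 3 higher in A/J and 6 and 4 lower in CAST/EiJ. With the marker covariates 10 of the 11 targets were still called for a strain effect. Over the 9 strain means, Nr1h3 had r = -0.30 with Abcg5 and -0.18 with Srebf1, and neither correlation passed the exact permutation test (adjusted p 0.964 for both).

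The constitutive androstane receptor Nr1i3 (CAR), which turns on drug-metabolizing enzymes, lies on chromosome 1 at 171213970 to 171220701 (GRCm38, plus strand). C57BL/6J had 220.2, 246.0 and 317.8 CPM and 129S1/SvImJ 229.9, 201.8 and 269.6. The low strains were PWK/PhJ with 144.1, 94.3 and 96.0 CPM, NZO/HlLtJ with 100.2, 95.3 and 147.3, and DBA/2J with 127.6, 132.2 and 93.2. The other strains were WSB/EiJ (163.0, 222.1 and 199.2), A/J (145.6, 222.6 and 153.0), NOD/ShiLtJ (122.8, 207.0 and 149.4) and CAST/EiJ (178.3, 171.5 and 110.2). No library of C57BL/6J or 129S1/SvImJ overlapped those of the 3 low strains, whereas A/J and NOD/ShiLtJ overlapped both ends. The highest and lowest means, 261.3 ± 50.6 in C57BL/6J and 111.5 ± 28.2 in PWK/PhJ, were 2.34-fold apart (adjusted p 3.21e-04). Nr1i3 was higher in C57BL/6J (log2 difference 0.78, adjusted p 0.00186), a call lost without C57BL/6J replicate 4 (0.0589), and in 129S1/SvImJ (0.60, adjusted p 0.0168), lost without replicate 1 (0.0681) or 3 (0.121) of that strain. It was lower in PWK/PhJ (-0.60, adjusted p 0.0159), lost without PWK/PhJ replicate 2 (0.114) or 3 (0.0999), and in NZO/HlLtJ (-0.56, adjusted p 0.0299), lost without NZO/HlLtJ replicate 1 (0.173) or 2 (0.197). With the marker covariates the difference was 0.47 in C57BL/6J (adjusted p 0.294), where 11 of 12 Kupffer markers were higher, and -0.37 in NZO/HlLtJ (0.291). The other calls were kept, at -1.12 in PWK/PhJ (0.00145) and 0.69 in 129S1/SvImJ (0.0291). Its exons share 3304 bases with Tomm40l on the opposite strand and its estimated counts were not whole in any library. The labels do not say whether reads were counted by strand, so reads of the 2 genes may be mixed; Tomm40l itself did not pass the strain test (adjusted p 0.149).

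The other sensors varied less. The pregnane X receptor Nr1i2 (PXR), a sensor of foreign compounds and bile acids, ran from 34.3 CPM in WSB/EiJ to 49.5 in CAST/EiJ (1.44-fold, adjusted p 0.0124). Its call in CAST/EiJ (log2 difference 0.40, adjusted p 0.00665) was lost without CAST/EiJ replicate 1 (0.0636) or 4 (0.126), and kept with the marker covariates (0.61, 0.0195). It was also higher in 129S1/SvImJ (0.34, adjusted p 0.0388), a call kept with the covariates (0.46, 0.0336) and lost in 6 of 27 refits, most clearly without 129S1/SvImJ replicate 3 (0.19, adjusted p 0.348). The bile acid receptor Nr1h4 (FXR) ran from 37.6 CPM in A/J to 59.4 in 129S1/SvImJ (1.58-fold, adjusted p 0.0444). That call was lost in 14 of the 27 refits without a library, most clearly without 129S1/SvImJ replicate 1 (adjusted p 0.10). Its strain effect had an adjusted p of 0.783 with the marker covariates, and its A/J deficit was -0.09 (0.901) in place of -0.39 (0.0479). All 18 listed CAR and PXR targets differed among strains, where 74.2% of all genes did. Their median log2 range was 2.51, the widest of the 11 lists. The glutathione transferase Gstm3 had 136.3 CPM in NOD/ShiLtJ and 0.235 in PWK/PhJ (adjusted p 1.09e-11), the sulfotransferase Sult1e1 106.6 in WSB/EiJ and 0.0487 in PWK/PhJ (adjusted p 1.41e-11), and the cytochrome Cyp2c55 83.1 in DBA/2J and 2.14 in 129S1/SvImJ (adjusted p 2.61e-10). In PWK/PhJ, 12 of the 18 were lower and 1 higher (14.8% and 19.4% of all genes). In WSB/EiJ 10 were higher and 1 lower (15.5% and 9.25%). Cyp2b10, the standard marker of CAR activity, ran from 43.6 CPM in 129S1/SvImJ, a strain with high Nr1i3, to 654.1 in NOD/ShiLtJ (adjusted p 3.51e-07). Over the 9 strain means, r was 0.02 between Nr1i3 and Cyp2b10 and -0.06 between Nr1i2 and Cyp3a11 (exact permutation test, adjusted p 0.964 for both).

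The bile acid feedback pair consists of Nr0b2 (SHP), a receptor without a DNA-binding domain that is induced by FXR and represses bile acid synthesis, and Nr5a2 (LRH-1), a monomeric activator that SHP restrains. Nr0b2 (chromosome 4 at 133553376 to 133556536, plus strand) scattered widely within strains. NOD/ShiLtJ had 37.4, 52.7 and 53.7 CPM, 129S1/SvImJ 51.5, 18.5 and 65.0, and PWK/PhJ 47.5, 59.1 and 24.0. CAST/EiJ had 27.9, 26.8 and 13.2 CPM, WSB/EiJ 28.9, 28.6 and 12.6, and DBA/2J 17.5, 33.7 and 18.8. A/J had 22.6, 22.8 and 37.3, C57BL/6J 32.9, 23.1 and 29.6, and NZO/HlLtJ 33.2, 23.6 and 23.4 CPM. The 3 libraries of 129S1/SvImJ alone spanned most of the range of all 27, and no strain stood clear of the others. The highest and lowest means, 47.9 ± 9.14 in NOD/ShiLtJ and 22.6 ± 8.14 in CAST/EiJ, were 2.12-fold apart, with an adjusted p of 0.0466 that was lost in 17 of the 27 refits without a library (0.0975 without NOD/ShiLtJ replicate 2) and no call in any single strain. Nr5a2 ran from 36.7 CPM in A/J to 55.7 in NZO/HlLtJ (1.52-fold, adjusted p 0.0238), also with no call in a single strain.

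Of 13 FXR and bile acid genes tested, a list that includes Nr0b2, 11 differed among strains and 9 of these at least 2-fold. Over all genes tested 74.2% differed. In WSB/EiJ 8 of the list were higher and 1 lower (15.5% and 9.25% of all genes), and in NZO/HlLtJ 7 were lower (12.9%). The liver-secreted protein Fetub had 2164.4 CPM in PWK/PhJ and 547.3 in NZO/HlLtJ (adjusted p 5.06e-09), the lipase cofactor Apoc2 372.9 in WSB/EiJ and 107.6 in NZO/HlLtJ (adjusted p 4.26e-07) and the bile salt export pump Abcb11 1803.7 in WSB/EiJ and 436.8 in NZO/HlLtJ (adjusted p 3.74e-06). Cyp7a1, the rate-limiting enzyme of bile acid synthesis, varied as much within strains as between them (adjusted p 0.219). Over strain means, r was 0.12 for Nr1h4 with Nr0b2, -0.18 for Nr1h4 with Abcb11, -0.35 for Nr0b2 with Cyp7a1, -0.21 for Nr0b2 with Cyp8b1 and -0.59 for Nr5a2 with Cyp8b1 (exact permutation test, adjusted p 0.461 for the last and 0.964 for the others). Several of these moved widely: without 1 library r ran from -0.57 to -0.08 for Nr0b2 with Cyp7a1 and from -0.30 to -0.04 for Nr1h4 with Abcb11. Without the 2 strains farthest from the median of the member, r was -0.78 for Nr0b2 with Cyp7a1 and -0.60 with Cyp8b1, -0.24 for Nr1h4 with Nr0b2, -0.41 with Abcb11, and -0.22 for Nr5a2 with Cyp8b1.

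Both fatty acid receptors were among the 3 members with the strongest strain effect. Pparg, the master regulator of fat cell formation that hepatocytes express at low level, lies on chromosome 6 at 115360951 to 115490399 (GRCm38, plus strand). PWK/PhJ libraries had 0.120, 0.0687 and 0.133 CPM, which were 3, 2 and 4 counts. The 129S1/SvImJ libraries had 6.73, 6.58 and 6.06 CPM, and C57BL/6J 6.39, 4.23 and 2.15. NZO/HlLtJ had 2.96, 2.48 and 2.44, A/J 1.23, 3.79 and 2.37, and DBA/2J 1.27, 1.51 and 1.79. All 3 PWK/PhJ libraries lay below every other library, and 129S1/SvImJ overlapped only C57BL/6J. NOD/ShiLtJ had 1.49, 0.935 and 1.67 CPM, CAST/EiJ 0.443, 1.18 and 1.24, and WSB/EiJ 0.337, 0.403 and 2.62. The summed counts were 633 in 129S1/SvImJ and 9 in PWK/PhJ, a ratio of 60.6 after scaling, with an exact 95% interval for counting error of 31.7 to 133. Among strains Pparg differed with an adjusted p of 3.31e-06. It was lower in PWK/PhJ (log2 difference -4.24, SE 0.64, adjusted p 1.13e-05), and higher in 129S1/SvImJ (2.35, SE 0.32, adjusted p 7.24e-06) and C57BL/6J (1.68, SE 0.34, adjusted p 9.5e-04), whichever library was left out. The C57BL/6J call was lost with the marker covariates (1.29, adjusted p 0.26) and those in PWK/PhJ (-4.37) and 129S1/SvImJ (2.31) kept. Beside these values, all 12 endothelial markers were higher in PWK/PhJ, 11 of 12 Kupffer markers were higher in C57BL/6J and 5 were lower in 129S1/SvImJ. The part of other cells in the Pparg level was not tested further.

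Pparg has 3 annotated starts in RefSeq, and sequence before them is shown because this gene had the largest fold change among members. Capitals mark the hexamer AGGTCA, the core element of the family, found on either strand. At the first 2 starts GENCODE exons lie over the window, so only the 30 bases before the start are given, and at the third the 100 bases before it (GRCm38.p6, plus strand).
Pparg, chr6:115361114-115361143: tcAGGTCAgagtcgccccgggccacgcggc
Pparg, chr6:115362319-115362348: ttttatataagggacgcgaggAGGTCAaga
Pparg, chr6:115421966-115422065: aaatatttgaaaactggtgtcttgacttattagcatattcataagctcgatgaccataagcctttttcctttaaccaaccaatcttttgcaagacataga
The hexamer began 28 bases before the first start and 9 before the second, and no copy lay in the 300 bases around the third. These are reference sequences of C57BL/6J, and the counts are per gene, so the use of each start in each strain was not analysed here. Over the 49 RefSeq promoters (250 bases before to 50 after the start) of the 32 members in the table, 10 promoters of 9 genes held AGGTCA on either strand. It occurs in 16.3% of all 32851 promoters of that length, and in 13.4% of the 13370 promoters of tested genes. The direct repeats of AGGTCA with 1 or 4 bases between the copies, its inverted repeat with 1 base between, and the extended form CAAGGTCA were in 0 of the 49, and in 0.0396%, 0.0152%, 0.00913% and 1.56% of all promoters; every match of the longer motifs also contains the hexamer.

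Ppard, a broadly expressed fatty acid receptor, lies on chromosome 17 at 28232700 to 28301474 (GRCm38, plus strand). NZO/HlLtJ libraries had 26.1, 20.4 and 17.4 CPM and NOD/ShiLtJ 23.1, 22.7 and 12.1. The low strains were CAST/EiJ with 3.61, 3.26 and 4.07 CPM, C57BL/6J with 4.48, 3.49 and 3.66, and WSB/EiJ with 6.28, 4.36 and 3.73. With means in between, PWK/PhJ had 8.74, 16.1 and 6.54, DBA/2J 8.45, 5.37 and 8.77, A/J 12.3, 4.26 and 2.96, and 129S1/SvImJ 4.53, 8.70 and 4.89. NZO/HlLtJ overlapped only NOD/ShiLtJ, and the 3 low strains overlapped each other. Libraries of A/J, 129S1/SvImJ and DBA/2J also reached into their range, and the lowest library of all (2.96 CPM) was in A/J. The highest and lowest means, 21.3 ± 4.43 in NZO/HlLtJ and 3.65 ± 0.407 in CAST/EiJ, were 5.85-fold apart (adjusted p 5.76e-06). Ppard was higher in NZO/HlLtJ (log2 difference 1.67, SE 0.25, adjusted p 1.98e-05) and NOD/ShiLtJ (1.51, SE 0.25, adjusted p 1.19e-04) and lower in CAST/EiJ (-1.20, SE 0.33, adjusted p 0.00601), whichever library was left out. Its deficit in C57BL/6J (-1.09, adjusted p 0.022) was lost without C57BL/6J replicate 2 (0.113) or 4 (0.117), and with the marker covariates both deficits were lost (-0.88, adjusted p 0.235 in CAST/EiJ and -0.55, 0.58 in C57BL/6J) and both excesses kept. The 2 fatty acid receptors did not share an order of strains: PWK/PhJ was lowest for Pparg and behind only NZO/HlLtJ and NOD/ShiLtJ for Ppard.

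Of 9 fatty acid receptor targets tested, 7 differed among strains, where 74.2% of all genes did. Each of these differed at least 2-fold, and the list had a median log2 range of 1.73. The fatty acid transporter Cd36 had 234.7 CPM in WSB/EiJ and 6.95 in NOD/ShiLtJ (33.8-fold, adjusted p 5.83e-09), and the adiponectin receptor Adipor2 967.9 in WSB/EiJ and 407.3 in 129S1/SvImJ (adjusted p 3.45e-06). The fatty acid binding protein Fabp4, which endothelial cells and macrophages also express, had 8.25 CPM in PWK/PhJ, where markers of both were high, and 0.274 in NZO/HlLtJ (adjusted p 1.79e-07). Pparg had r = 0.02 with the lipid droplet gene Cidec and -0.15 with Cd36 over strain means (exact permutation test, adjusted p 0.964 for both).

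**Figure D4:**
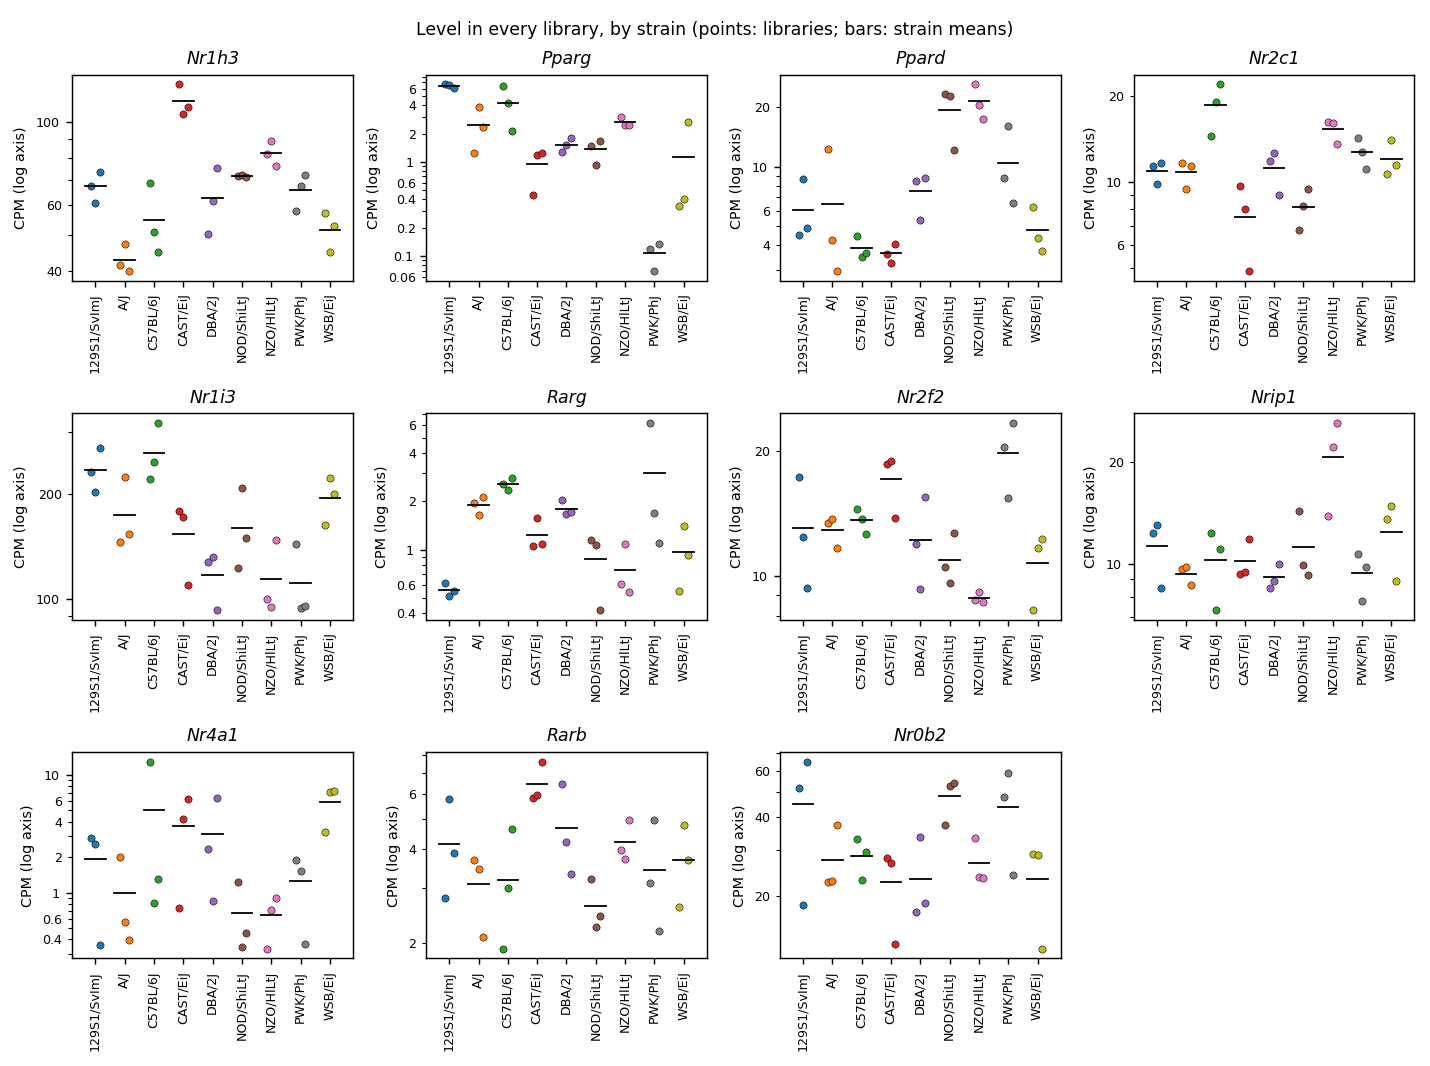
CPM on a log axis in every library of the 11 members described by library, with 9 strains along the horizontal axis, a point per library and a bar at each strain mean. For Pparg the 3 PWK/PhJ libraries lie between 0.0687 and 0.133 CPM, below all others, and for Nr1h3 the 3 CAST/EiJ libraries lie between 104.7 and 126.0, above all others.

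Of the RXR genes, which supply the common heterodimer partner, Rxra and Rxrg differed among strains and Rxrb did not pass (adjusted p 0.26). Rxra had 388.5, 391.2 and 321.7 CPM in CAST/EiJ, above every library of the other strains, and 205.3, 217.4 and 177.0 in A/J. The remaining libraries lay between 189.5 and 304.4 CPM, so CAST/EiJ was the strain apart. Its mean of 367.1 ± 39.4 was 1.84-fold that of A/J, 199.9 ± 20.7 (adjusted p 0.00195), and the log2 difference of CAST/EiJ from the other strains was 0.63 (SE 0.12, adjusted p 1.13e-04), whichever library was left out. The A/J deficit (-0.35, adjusted p 0.0403) was lost in 7 of 27 refits without a library, most clearly without A/J replicate 3 (0.245), and with the marker covariates (-0.29, 0.481). With them the strain effect itself was lost (0.176), while the CAST/EiJ difference was kept (0.54, adjusted p 0.0381). Rxrg had 7.31, 7.62 and 7.70 CPM in NZO/HlLtJ and 3.15, 4.59 and 3.83 in A/J (1.96-fold, adjusted p 0.00448); the NZO/HlLtJ excess (0.58, adjusted p 0.00715) held whichever library was left out, and the A/J deficit (-0.51, adjusted p 0.0328) was lost without A/J replicate 1 (0.167) or 3 (0.125). Of these, the first was kept with the marker covariates (0.67, adjusted p 0.0259) and the second lost (-0.95, 0.0939). Since Rxra was the partner set apart in 1 strain, sequence before both its RefSeq starts is shown (100 bases each). The first has no AGGTCA in its 300 bases, and before the second it occurs on both strands, beginning 87 and 48 bases before the start (GRCm38.p6, plus strand; the reverse complement reads TGACCT).
Rxra, chr2:27677101-27677200: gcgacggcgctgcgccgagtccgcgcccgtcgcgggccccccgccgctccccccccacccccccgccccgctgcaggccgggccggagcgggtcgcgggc
Rxra, chr2:27709192-27709291: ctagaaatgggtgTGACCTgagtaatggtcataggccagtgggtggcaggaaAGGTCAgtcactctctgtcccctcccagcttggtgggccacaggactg

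The 3 retinoic acid receptors, which bind the active form of vitamin A, each differed among strains. Rara and Rarb were both highest in CAST/EiJ, and Rarg in PWK/PhJ. Rara was highest in CAST/EiJ (13.4 ± 2.30 CPM) and lowest in A/J (7.03 ± 1.87), with an adjusted p of 0.00679. Its CAST/EiJ call (0.59, adjusted p 0.00219) was lost without CAST/EiJ replicate 1 (0.0616), and its A/J call (-0.46, adjusted p 0.0374) without A/J replicate 1 (0.197) or 3 (0.213). With the marker covariates its strain effect was lost (adjusted p 0.0945). Both calls were lost too, at differences of 0.49 in CAST/EiJ (adjusted p 0.17) and -0.44 in A/J (adjusted p 0.434). Rarb (chromosome 14 at 16430839 to 16819156, minus strand), itself a retinoic acid target, had 5.85, 5.98 and 7.63 CPM in CAST/EiJ and 3.21, 2.25 and 2.44 in NOD/ShiLtJ. DBA/2J had 6.46, 4.22 and 3.32 CPM, NZO/HlLtJ 3.98, 3.72 and 4.97, 129S1/SvImJ 2.79, 5.81 and 3.88, and WSB/EiJ 2.61, 4.76 and 3.68. PWK/PhJ had 3.11, 4.95 and 2.19 CPM, C57BL/6J 1.91, 3.00 and 4.63, and A/J 3.70, 3.46 and 2.09. CAST/EiJ overlapped only DBA/2J. The means of CAST/EiJ and NOD/ShiLtJ were 2.46-fold apart, with an adjusted p of 0.0385 that was lost in 6 of 27 refits, among them those without CAST/EiJ replicate 1 (0.0688), 4 (0.074) or 5 (0.135), NOD/ShiLtJ replicate 2 (0.0706) or 3 (0.0697) and C57BL/6J replicate 2 (0.0541). The excess in CAST/EiJ (0.86, adjusted p 0.00532) was lost without CAST/EiJ replicate 5 (0.0549). The strain effect was lost with the marker covariates (0.0726) and the CAST/EiJ difference kept (1.31, adjusted p 0.0323). Rarb shares 1793 exonic bases with Top2b on the other strand, which did not pass the strain test (adjusted p 0.652).

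For Rarg (chromosome 15 at 102234938 to 102257517, minus strand) a single library held the highest value in the strain with the highest mean. PWK/PhJ had 6.19, 1.68 and 1.1 CPM, the first being the library with the most endothelial and Kupffer cell marker RNA. C57BL/6J had 2.56, 2.34 and 2.78, A/J 1.96, 1.64 and 2.13, and DBA/2J 2.03, 1.66 and 1.72 CPM. The 129S1/SvImJ libraries were low and close, at 0.620, 0.515 and 0.554. NZO/HlLtJ had 0.612, 1.09 and 0.545 CPM, NOD/ShiLtJ 1.14, 1.07 and 0.418, WSB/EiJ 0.548, 1.41 and 0.921, and CAST/EiJ 1.06, 1.57 and 1.08. Apart from that PWK/PhJ library, the 3 libraries of C57BL/6J were the highest of all. The strain effect had an adjusted p of 7.36e-04, and 0.0702 with the marker covariates. The PWK/PhJ difference was 1.32 on the log2 scale (adjusted p 0.0017), 0.22 without PWK/PhJ replicate 1 (0.652) and 0.26 with the marker covariates (0.743). The calls in C57BL/6J (1.08, adjusted p 0.0191) and 129S1/SvImJ (-1.37, adjusted p 0.0202) were each lost without any 1 of the 3 libraries of that strain, with adjusted p of 0.0519 to 0.115 and of 0.0717 to 0.102. With the marker covariates both were lost, at 0.36 in C57BL/6J (adjusted p 0.758) and -1.01 in 129S1/SvImJ (adjusted p 0.177). Rora, a receptor of the clock and of lipid metabolism, did not pass (1.46-fold, adjusted p 0.103), but was called by DESeq2 (0.0496) and with the marker covariates (0.0419). Its r with the clock receptor Nr1d1 was 0.05.

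Of 10 retinoic acid targets and enzymes tested, 7 differed among strains, where 74.2% of all genes did. The retinol dehydrogenase Rdh16 had 212.2 CPM in C57BL/6J and 22.2 in PWK/PhJ (adjusted p 2.36e-09) and the retinaldehyde dehydrogenase Aldh1a1 974.0 in DBA/2J and 343.7 in PWK/PhJ (adjusted p 2.35e-05). In CAST/EiJ, the strain with the most Rara and Rarb, 5 were lower (17.8% of all genes), and in WSB/EiJ 6 were higher (15.5%). Rarb and the retinoic acid hydroxylase Cyp26b1 had r = 0.63 over strain means (exact permutation p 0.0682, adjusted 0.409), 0.09 over the means without CAST/EiJ and NOD/ShiLtJ, and 0.71 within strains.

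Of the thyroid hormone receptors, Thrb, the main form in liver, differed among strains and Thra did not pass. Thrb libraries of 129S1/SvImJ had 31.6, 31.2 and 32.2 CPM, above all others, against 24.9, 15.7 and 13.8 in A/J (1.75-fold between means, adjusted p 0.00671). The 129S1/SvImJ difference of 0.52 (SE 0.14, adjusted p 0.011) crossed the threshold without any 1 of its 3 libraries, with adjusted p of 0.0503 to 0.0559, and with the marker covariates (0.38, adjusted p 0.0835). Thra ran from 7.82 CPM in CAST/EiJ to 11 in PWK/PhJ (adjusted p 0.187); it shares 263 exonic bases with Nr1d1 on the other strand, and its counts were not whole in any library. Nr1d1 ran from 10.9 CPM in NZO/HlLtJ to 71.8 in CAST/EiJ (adjusted p 1.18e-04), and r between Thra and Nr1d1 was 0.22. Of 9 thyroid hormone targets, 8 differed among strains, where 74.2% of all genes did. The hydroxylase Cyp7b1 had 863.7 CPM in PWK/PhJ and 38.3 in 129S1/SvImJ (22.6-fold, adjusted p 1.34e-13), the deiodinase Dio1 294.5 in A/J and 82.1 in PWK/PhJ (adjusted p 2.67e-06) and the glycerophosphate dehydrogenase Gpd2 60.1 in A/J and 28.4 in NZO/HlLtJ (adjusted p 8.8e-06). Thrb and Dio1 ran in opposite order over strain means, with r = -0.77 and rho = -0.63 (exact permutation p 0.0166 for r, adjusted 0.15), which did not pass, and r within strains was -0.07.

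The estrogen receptor Esr1 and the estrogen-related receptor Esrra, a regulator of mitochondrial genes, were both highest in CAST/EiJ, while the glucocorticoid receptor Nr3c1 and the mineralocorticoid receptor Nr3c2 did not pass the strain test. Esr1 had 63.9, 41.4 and 72.7 CPM in CAST/EiJ and 30.4, 33.2 and 27.7 in NOD/ShiLtJ (1.95-fold, adjusted p 0.00973). Libraries of NZO/HlLtJ (55.5 and 57.8), PWK/PhJ (60.2), DBA/2J (42.2 and 47.9) and A/J (41.6) reached into the CAST/EiJ range. The CAST/EiJ excess (0.69, adjusted p 0.00279) was lost without CAST/EiJ replicate 5 (0.0624) and, at 0.77, with the marker covariates (0.0633). Esrra had 23.3, 20.7 and 17.4 CPM in CAST/EiJ and 13.6, 8.54 and 10 in C57BL/6J (1.91-fold, adjusted p 0.00237), and its CAST/EiJ excess (0.64, SE 0.13, adjusted p 2.36e-04) held whichever library was left out, but not with the marker covariates (0.56, adjusted p 0.0875). Its deficit in C57BL/6J (-0.40, adjusted p 0.0464) was lost in 16 of 27 refits, most clearly without C57BL/6J replicate 2 (0.331). With the covariates that call was lost at a difference of -0.45 (adjusted p 0.223). Nr3c1 was among the steadiest members, at 51.5 to 77.2 CPM over all libraries (adjusted p 0.18). Nr3c2 ran from 6.17 CPM in WSB/EiJ to 10.9 in CAST/EiJ (adjusted p 0.0778), and DESeq2 called it (0.0464). It was higher in CAST/EiJ (0.58, adjusted p 0.00982), a call lost without CAST/EiJ replicate 1 (0.13) or 4 (0.102) and with the marker covariates (0.39, 0.385).

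Nr3c1 and Tat, the classical glucocorticoid-induced enzyme of tyrosine breakdown, gave the only correlation that passed among the 18 pairs tested. Strains with less Nr3c1 had more Tat: NOD/ShiLtJ libraries had 63.3, 55.3 and 55.0 CPM of Nr3c1 and 1182.5, 1136.6 and 1914.9 of Tat, and WSB/EiJ 56.1, 68.0 and 54.6 of Nr3c1 and 1707.0, 1518.4 and 2202.1 of Tat. A/J had 75.1, 76.2 and 65.3 CPM of Nr3c1 and 526.7, 724.9 and 1081.7 of Tat. Over the 9 strain means r was -0.84 (exact permutation p 0.00252, adjusted over 18 pairs 0.0453) and rho -0.97 (p 1.65e-04, adjusted 0.00298). Without NOD/ShiLtJ and WSB/EiJ, the strains farthest from the median of Nr3c1, r was -0.71, and within strains it was -0.47. The call was lost in 15 of 27 refits without a library, with r from -0.89 to -0.73 and adjusted p up to 0.231 (without 129S1/SvImJ replicate 2), and with median-of-ratios size factors (-0.81, adjusted p 0.0958). Neither gene passed the strain test (Tat, adjusted p 0.11). Of 13 glucocorticoid targets 8 differed among strains, where 74.2% of all genes did. They were led by Lcn2 (228.4 ± 296.7 CPM in WSB/EiJ and 0.379 in NZO/HlLtJ, adjusted p 4.17e-09), which is also an acute phase gene, Sds (adjusted p 3.0e-04) and Igfbp1 (adjusted p 0.00111), all highest in WSB/EiJ. Of 5 estrogen targets tested 4 differed, led by Ctse, with 72.8 CPM in 129S1/SvImJ and 0.209 in A/J (adjusted p 9.81e-18), Cyp17a1 (adjusted p 2.95e-06) and Esrrg (adjusted p 3.35e-04).

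Among the orphan receptors, which have no settled natural ligand, 4 of 8 differed among strains, below the 74.2% of all genes. Nr2c1 (TR2, chromosome 10 at 94148023 to 94197211, plus strand) had 14.5, 19.0 and 22.0 CPM in C57BL/6J and 16.2, 16.0 and 13.5 in NZO/HlLtJ. It had 9.66, 8 and 4.85 in CAST/EiJ and 6.75, 8.21 and 9.41 in NOD/ShiLtJ. No library of the first 2 strains overlapped the last 2. PWK/PhJ had 14.2, 12.7 and 11.1 CPM, WSB/EiJ 10.6, 14 and 11.4, DBA/2J 11.8, 12.6 and 8.96, 129S1/SvImJ 11.3, 9.79 and 11.6, and A/J 11.6, 9.41 and 11.3. The means of C57BL/6J, 18.5 ± 3.74, and CAST/EiJ, 7.50 ± 2.45, were 2.46-fold apart (adjusted p 1.16e-04). Nr2c1 was higher in C57BL/6J (log2 difference 0.77, SE 0.14, adjusted p 2.81e-04) and lower in CAST/EiJ (-0.67, SE 0.16, adjusted p 0.00178), whichever library was left out. The excess in NZO/HlLtJ (0.46, adjusted p 0.0179) was lost without NZO/HlLtJ replicate 1 (0.109) or 2 (0.105), and the deficit in NOD/ShiLtJ (-0.56, adjusted p 0.017) without NOD/ShiLtJ replicate 1 (0.156) or 2 (0.0741). With the marker covariates the calls were lost, with differences of 0.67 in C57BL/6J (adjusted p 0.0704), -0.48 in CAST/EiJ (0.204), 0.54 in NZO/HlLtJ (0.0661) and -0.48 in NOD/ShiLtJ (0.0631). Its relative Nr2c2 (TR4) did not pass (adjusted p 0.13). It was higher in 129S1/SvImJ (0.54, adjusted p 0.0311), a call lost without replicate 1 (0.194) or 2 (0.167) of that strain and with the marker covariates (0.36, 0.372); 4590 of its exonic bases are shared with Mrps25 on the other strand, and its counts were not whole in any library.

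Nr2f2 (COUP-TFII, chromosome 7 at 70351944 to 70366735, minus strand), known for its part in vein and lymph vessel identity, had 20.4, 15.4 and 23.4 CPM in PWK/PhJ and 18.6, 18.9 and 13.8 in CAST/EiJ. NZO/HlLtJ had 8.74, 9.16 and 8.66. The other strains were C57BL/6J at 14.5, 13.7 and 12.6, 129S1/SvImJ at 17.3, 12.4 and 9.32, A/J at 13.4, 13.7 and 11.7, DBA/2J at 11.9, 9.29 and 15.5, NOD/ShiLtJ at 10.5, 9.60 and 12.7, and WSB/EiJ at 8.26, 11.7 and 12.3. PWK/PhJ and NZO/HlLtJ did not overlap, and their means, 19.7 ± 4.01 and 8.85 ± 0.269, were 2.23-fold apart (adjusted p 0.00101). The PWK/PhJ excess (0.69, SE 0.15, adjusted p 6.53e-04) held whichever library was left out. The NZO/HlLtJ deficit (-0.61, adjusted p 0.00822) was lost without NZO/HlLtJ replicate 1 (0.0519), and the CAST/EiJ excess (0.46, adjusted p 0.0176) without CAST/EiJ replicate 1 (0.115) or 4 (0.122). In PWK/PhJ all 12 endothelial markers were higher and in NZO/HlLtJ 9 were lower, so Nr2f2 and these markers moved together in both strains. In CAST/EiJ they did not, with 1 endothelial marker lower and sums of 77.8 to 206.2 CPM. In the fit with the marker covariates, the PWK/PhJ and NZO/HlLtJ differences of Nr2f2 were kept, at 0.92 (adjusted p 0.00212) and -0.88 (adjusted p 0.00252), and the CAST/EiJ difference was 0.14 (adjusted p 0.751). Nr2f1 (COUP-TFI) had 16, 11 and 15 counts in PWK/PhJ and 0 to 8 in any other library. It did not pass the strain test (adjusted p 0.108). Its PWK/PhJ difference was called (2.26, adjusted p 0.00565), and was 1.02 (adjusted p 0.395) with the marker covariates. Only the PWK/PhJ libraries carried the gene over the low-count filter, so that call draws on the libraries that let the gene in. Nr2f6, which shares 1622 exonic bases with Ocel1, did not pass (adjusted p 0.365), and neither did Nr6a1 (0.0841).

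The immediate early receptors Nr4a1 (Nur77) and Nr4a2 (Nurr1), which cells induce within minutes of a stimulus, both differed among strains and scattered widely within them. Nr4a1 (chromosome 15 at 101254269 to 101274795, plus strand) had 3.25, 7.10 and 7.23 CPM in WSB/EiJ and 12.9, 0.821 and 1.30 in C57BL/6J. CAST/EiJ had 0.739, 4.17 and 6.19 CPM, DBA/2J 2.32, 0.854 and 6.28, and 129S1/SvImJ 2.88, 2.58 and 0.359. PWK/PhJ had 1.88, 1.51 and 0.365 CPM, A/J 2.01, 0.562 and 0.395, NOD/ShiLtJ 1.23, 0.346 and 0.453, and NZO/HlLtJ 0.331, 0.709 and 0.898. The libraries of C57BL/6J alone covered most of the range, and WSB/EiJ was the strain with all libraries above 3 CPM. The means of WSB/EiJ, 5.86 ± 2.26, and NZO/HlLtJ, 0.646 ± 0.289, were 9.07-fold apart (adjusted p 0.0171). The call of a WSB/EiJ excess (1.80, adjusted p 0.0243) was lost without WSB/EiJ replicate 3 (0.125) or 4 (0.119). It was also lost with the marker covariates (0.157) and by DESeq2 (0.0503). The log2 difference itself remained, at 1.64 without replicate 3, 1.63 without replicate 4 and 1.82 by DESeq2. With the marker covariates it lay just below the values of the refits without a library. Nr4a2, at 0 to 32 counts, was higher in CAST/EiJ (1.76, adjusted p 0.00453; 0.0642 without CAST/EiJ replicate 5) and PWK/PhJ (1.72, adjusted p 0.00553; 0.124 without PWK/PhJ replicate 3). Adding the marker covariates kept the first (2.78, adjusted p 0.0344) and ended the second (1.77, 0.0579). Its summed counts of 57 in CAST/EiJ and 8 in DBA/2J gave a ratio of 6.19 with an exact 95% interval for counting error of 2.94 to 15. Of 13 immediate early genes tested, 3 differed among strains, where 74.2% of all genes did (adjusted p 0.0111 for Klf4, 0.0395 for Egr1 and 0.0429 for Fos), all highest in PWK/PhJ, where 12 endothelial, 8 Kupffer and 7 stellate markers were higher. That count was 0 without PWK/PhJ replicate 1, the library richest in those markers, 1 without C57BL/6J replicate 4, DBA/2J replicate 2 or NOD/ShiLtJ replicate 3, and 8 without PWK/PhJ replicate 3. It was 4 with the marker covariates, 10 without a filter on low counts and 5 by DESeq2 or with the replicate block. Nr4a1 had r = -0.21 with Fos over strain means (exact permutation test, adjusted p 0.964).

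Of the coregulators among the members, only the corepressor Nrip1, a repressor of energy-use genes, differed by 2-fold or more. The gene lies on chromosome 16 at 76287400 to 76373827 (GRCm38, minus strand). NZO/HlLtJ libraries had 13.8, 22.0 and 26 CPM. The other strains lay at 8.49, 8.89 and 10 in DBA/2J, 9.68, 9.78 and 8.65 in A/J, 10.7, 7.77 and 9.79 in PWK/PhJ, and 9.34, 9.48 and 11.8 in CAST/EiJ. C57BL/6J had 12.3, 7.31 and 11.1 CPM, 129S1/SvImJ 12.3, 13.0 and 8.48, NOD/ShiLtJ 14.3, 9.94 and 9.30, and WSB/EiJ 13.6, 14.8 and 8.88. NZO/HlLtJ replicates 2 and 3 lay above all other libraries, and replicate 1 within the range of NOD/ShiLtJ and WSB/EiJ. The means of NZO/HlLtJ, 20.6 ± 6.22, and DBA/2J, 9.14 ± 0.807, were 2.26-fold apart (adjusted p 0.00127), and the NZO/HlLtJ excess (0.99, SE 0.16, adjusted p 5.32e-05) held whichever library was left out. Both were called with the marker covariates as well.

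The coactivators Ncoa1 and Ncoa3 differed by small amounts. Ncoa1 ran from 10.3 CPM in PWK/PhJ to 15.6 in NZO/HlLtJ (1.52-fold, adjusted p 0.0183) and Ncoa3 from 11.7 in CAST/EiJ to 17.2 in C57BL/6J (1.47-fold, adjusted p 0.0149). The strain effects of both were lost with the marker covariates (adjusted p 0.273 and 0.308), and each call of either gene in a single strain was lost without at least 2 of the 27 libraries. Ncoa3 shares 154 exonic bases with Sulf2, which itself ran from 22.8 CPM in NZO/HlLtJ to 84.1 in PWK/PhJ (adjusted p 3.04e-07), and its counts were not whole in 20 libraries. Ncoa2 (adjusted p 0.165) and Ncor1 (adjusted p 0.27) did not pass; counts of Ncor1 were not whole in any library. Of 21 other coregulators tested, 10 differed among strains (6 with the marker covariates), where 74.2% of all genes did. Of the 10, 4 differed at least 2-fold. The median log2 range of this list was 0.43, the lowest of the 11 lists and below the 0.95 of all genes. An exception was Ncoa4, a coactivator that also carries ferritin to degradation, with 117.3 ± 13.4 CPM in DBA/2J and 8.71 ± 4.65 in WSB/EiJ (13.5-fold, adjusted p 3.07e-12). Carm1 (adjusted p 0.0013) and Ppargc1b (adjusted p 0.0024) followed.

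Of 17 other nuclear receptors listed, 8 were tested and 7 differed among strains, each at least 2-fold, where 74.2% of all genes differed. Among them was the clock receptor Nr1d1, described above beside Thra. The median log2 ranges were 0.88 for the members, 0.43 for the other coregulators and 1.37 for these other nuclear receptors, and 1.34 to 2.51 for the 9 lists of targets and immediate early genes. These medians describe lists of unequal level and size, and their differences were not tested.

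**Figure D5:**
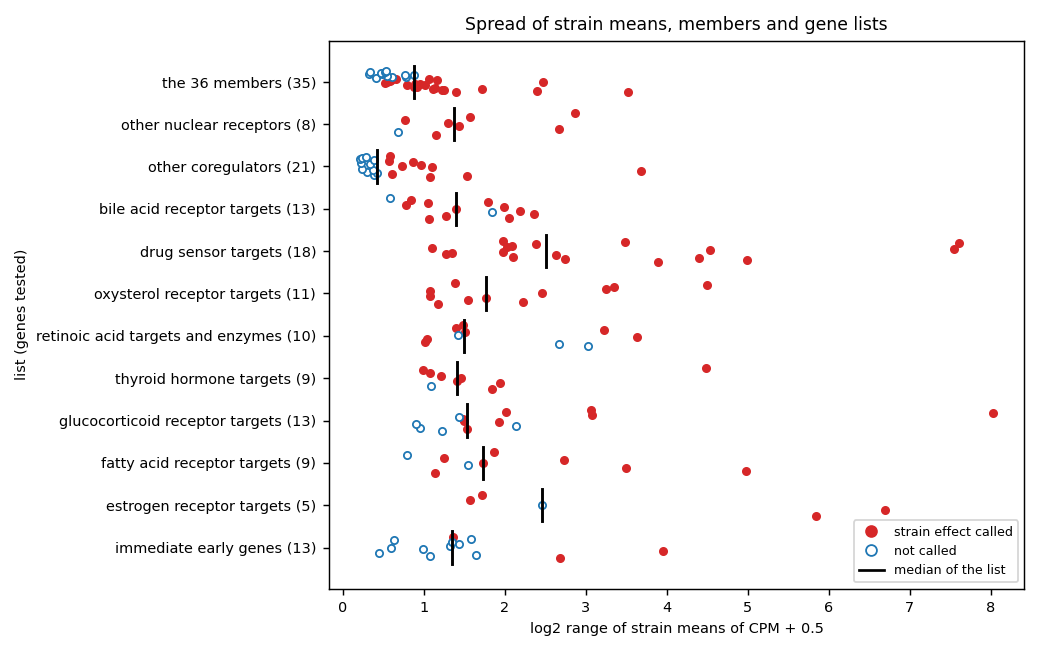
Log2 range of the 9 strain means of CPM + 0.5 for each tested gene of the members and of 11 lists (rows, with the number tested), red where the strain effect was called, with a black bar at each list's median. The medians run from 0.43 in other coregulators to 2.51 in drug sensor targets, and stand at 0.88 for the members.

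Of the 18 pairs of a member and a partner tested over strain means, 17 did not pass after adjustment. Without the 2 strains farthest from the median of the member, r was -0.55 for Rora and 0.63 for Thra, each with Nr1d1, 0.32 for Nr1i2 with Cyp3a11, 0.05 for Pparg with Cd36, -0.07 for Pparg with Cidec and -0.13 for Nr3c1 with Fkbp5. It was -0.52 for Nr1h3 with Abcg5, -0.38 for Nr1h3 with Srebf1, 0.23 for Nr1i3 with Cyp2b10, -0.67 for Thrb with Dio1 and -0.07 for Nr4a1 with Fos. The 53 single-strain calls of 25 members were uneven in strength: 16 were kept whichever library was left out, and 37 were lost without at least 1 of the 27. The 16 were those of Pparg in 129S1/SvImJ, C57BL/6J and PWK/PhJ, Ppard in NZO/HlLtJ, NOD/ShiLtJ and CAST/EiJ, Nr1h3 in CAST/EiJ and A/J, Nr2c1 in C57BL/6J and CAST/EiJ, Rxra and Esrra in CAST/EiJ, Nrip1 and Rxrg in NZO/HlLtJ, and Nr2f1 and Nr2f2 in PWK/PhJ. With the marker covariates, the calls of Pparg in C57BL/6J, Ppard and Esrra in CAST/EiJ, Nr1h3 in A/J, Nr2c1 in both strains and Nr2f1 were lost. The Nr2c1 call in CAST/EiJ was also lost with the replicate block (adjusted p 0.11). Nr2f1 did not pass the strain test (adjusted p 0.108), and only its PWK/PhJ libraries, with 42 counts in all, carried it over the low-count filter.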

How the data were processed

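RNA of hepatocytes from 9 strains was sequenced as 27 polyA-selected TruSeq libraries, per the labels' protocols, which do not state whether strand was marked or used in counting. The authors deposited 1 table of estimated counts per Ensembl gene, of which 11.1% are not whole (tolerance 1e-06). FastQC 0.11.5, DESeq2 and the builds GRCm38 and mm10 are named in the submitters' processing notes; the aligner, counter and annotation are not given in the sources used here. The 36 members were matched through GENCODE M21 symbols; IDs without a symbol held 0.0579% of counts.

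Counts were rounded and tested with edgeR 4.0.16 (quasi-likelihood, TMM, filterByExpr, 14482 genes, which held 99.97% of counts), with p-values adjusted over all genes by the Benjamini-Hochberg method and 0.05 as threshold. All 27 libraries entered 1 fit, with the overall strain effect and each strain against the mean of the 8 others as comparisons. CPM used the TMM factors (0.722 to 1.226). Correlations used log2(CPM + 0.5) and exact permutation over 9 strain means, two-sided, adjusted over 18 pairs. The script was tested on simulated data. R 4.3.3, limma 3.58.1, DESeq2 1.42.0, Python 3.11.15 and SciPy 1.17.1 were used. Promoters came from RefSeq (GRCm38.p6).

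The members and lists were chosen with earlier results of these data known. Libraries were given one by one for members called, at least 2-fold apart and at least 1 CPM in their highest strain, and up to 3 called genes by F were named per list; libraries of other members, Cyp2b10 and Cyp7a1 were chosen after their values were seen. Some named results are not reported here. Nothing says which libraries share a culture or a day, so p-values measure the spread between these samples. Over 76 pairs of same-numbered libraries of different strains, the correlation of deviations had a median of 0.023 and passed 0.1 in 17. Over 248 pairs of other numbers the median was -0.005, with 44 over 0.1. With both medians near 0, replicate numbers were not treated as pairs. Alternatives were median-of-ratios size factors, other filters, DESeq2, a replicate block, the marker lists of Kupffer, endothelial and stellate cells as covariates, other pseudocounts, exon lengths and leaving out each library.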

Additional observations from a re-analysis of the deposited data

How the results depend on the processing

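The number of members called for a strain effect, 23, ranged from 20 to 25 without 1 library and was 26 with DESeq2, 22 with median-of-ratios size factors or a mean of at least 10 counts, 23 without a filter and 16 with the marker covariates, where Ncoa1, Ncoa3, Nr0b2, Nr1h4, Rara, Rarb, Rarg and Rxra lost the call and Rora gained it. Of the 23 calls, 20 were kept whichever library was left out; Nr0b2, Nr1h4 and Rarb were not. With the marker covariates, calls of members in a strain were 17 higher in place of 34 and 6 lower in place of 19: 3 higher and 0 lower in 129S1/SvImJ, 0 lower in A/J, 0 and 0 in C57BL/6J, 5 and 0 in CAST/EiJ, 0 lower in NOD/ShiLtJ, 3 and 1 in NZO/HlLtJ, 5 and 2 in PWK/PhJ, and 0 and 3 in WSB/EiJ. The Ncoa1 difference in PWK/PhJ turned from -0.32 to 0.07 (adjusted p 0.746). Shares of all genes called in each strain were not counted with the marker covariates, so these counts of members stand without them. These covariates leave fewer residual degrees of freedom and are themselves strain-dependent, and the cause of the losses was not tested. Without a filter, members were 1 higher in A/J, 1 lower in C57BL/6J, 1 lower in DBA/2J, 2 higher in NOD/ShiLtJ and 2 lower in WSB/EiJ. DESeq2 gave 1 lower in DBA/2J and 0 higher in WSB/EiJ, and a mean of at least 10 counts gave 3 higher in PWK/PhJ. Exon length gave 27 CPM per kilobase for Nr1h3, 38.3 for Nr1i3 and 22.7 for Nr2f6. The cause of these changes was not tested.

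With the replicate block, 19 members were called for a strain effect, and calls in a strain were 12 lower in all, 2 lower in A/J, 3 higher in C57BL/6J, 1 lower in CAST/EiJ and 0 lower in WSB/EiJ; Ncoa3, Nr0b2, Nr1h4, Nr5a2 and Rarb lost the strain effect and Nr3c2 gained it (adjusted p 0.012). Replicate numbers were not shown to pair the samples.

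Leaving out each library in turn, members in a strain ranged from 1 to 7 higher and 0 to 1 lower in 129S1/SvImJ (1 higher without its replicate 1, 2 without its replicate 3), 0 to 1 and 1 to 8 in A/J, 3 to 6 and 0 to 6 in C57BL/6J, 6 to 13 higher in CAST/EiJ, 0 to 1 higher in DBA/2J, 0 to 1 lower in NOD/ShiLtJ, 3 to 8 and 0 to 4 in NZO/HlLtJ (3 higher without its replicate 1 or 2), 3 to 5 and 1 to 3 in PWK/PhJ, and 0 to 1 and 0 to 2 in WSB/EiJ.

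Of the 18 pairs, 0 or 1 was called without 1 library, with r of Nr3c1 and Tat from -0.89 to -0.73. With median-of-ratios size factors 0 were called (r = -0.81, adjusted p 0.0958). Correlations near 0 changed sign: without 1 library r ranged from -0.05 to 0.36 for Nr1h4 with Nr0b2, -0.33 to 0.01 for Nr0b2 with Cyp8b1, -0.06 to 0.11 for Nr1i3 with Cyp2b10, -0.16 to 0.00 for Nr1i2 with Cyp3a11, -0.04 to 0.27 for Nr3c1 with Fkbp5, -0.08 to 0.14 for Pparg with Cidec, -0.06 to 0.15 for Rora with Nr1d1 and -0.00 to 0.34 for Thra with Nr1d1. With a pseudocount of 5, r of Pparg with Cidec was -0.02. At 3 libraries per strain and 0 to 32 counts per library, levels of Nr2f1, Nr4a2 and Vdr carry a wide counting error.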
